A study of Mus musculus with 11 samples.

Results

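The Hox clusters are the 4 arrays of homeobox genes of the mouse genome. The accessible regions inside them were selected by position: every region of the deposited table whose start lies in 1 of 4 windows of GRCm38 (mm10), chr6:52140000-52280000 for Hoxa, chr11:96180000-96380000 for Hoxb, chr15:102910000-103050000 for Hoxc and chr2:74650000-74780000 for Hoxd. This gave 130 of the 248336 regions in the table, of which 31 lie in Hoxa, 42 in Hoxb, 26 in Hoxc and 31 in Hoxd. All 130 had enough reads to be tested. No measured value entered the selection.

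The table holds ATAC-seq counts, reads from fragments that a transposase cut out of open chromatin, for 11 libraries of mouse embryonic stem cells. The 4 groups are B6 (C57BL/6J, 3 libraries), D2 (DBA/2J, 3 libraries), B6-13D2 (B6.D2-(rs30079041-rs51756099)/Bakr, 2 libraries) and D2-13B6 (3 libraries). In B6-13D2, an interval of chromosome 13 comes from D2 and the rest of the genome from B6. D2-13B6 is D2 but for B6 alleles in an interval of that chromosome. The sample labels name the D2-13B6 strain D2.B6-(rs29224292-rs13469455)/Bakr and the design text of the series names it D2.B6-(rs29224292-rs51756099)/Bakr, so the right end of its interval is not settled here. The left markers of the lines differ too, so the intervals are not labelled as the same, and comparisons that set one line against the other carry that difference. Each group is 1 cell line, so genotype and cell line cannot be told apart. Cells of all groups grew with 15% serum, LIF and 2 inhibitors, PD0325901 at 1 µM against MEK and CHIR99021 at 3 µM against GSK3. The labels name no feeder layer. Each library began with 100000 cells. The libraries of a group are technical replicates of 1 cell line, so p-values here reflect library-to-library spread only and say nothing of other lines or mice of the genotype. The title of the series concerns trans-regulation of heterochromatin. No Hox cluster lies on chromosome 13, so a difference at a Hox region between a congenic line and its parent is one in trans to the labelled interval.

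Hox genes encode homeodomain transcription factors that give cells their position along the body axis. Within a cluster they stand in the order of the axis: paralogs 1 to 4 at the anterior end, 5 to 8 in the centre and 9 to 13 at the posterior end, where a paralog group is the set of matching genes of the 4 clusters. In embryonic stem cells the clusters are a classic target of Polycomb repression, with CpG-rich start sites that carry both activating and repressive histone marks, and they are opened from the anterior end as cells differentiate. Boundaries bound by CTCF divide them.

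Total counts per library ran from 15198496 to 43042955, and the Hox regions together held 12569 to 33359 counts. Levels are given as CPM, the field's counts scaled to a common library total, after scaling by edgeR's TMM factors, which were 1.07 to 1.10 in the 5 libraries of B6 and B6-13D2, 0.969 to 1.01 in D2, and 0.894, 0.769 and 0.997 in D2-13B6 replicates 1, 2 and 3. D2-13B6 replicate 2 thus stood apart, and its scaling raises its CPM most. Differences are log2 fold changes with their standard errors (SE) from edgeR's quasi-likelihood test on all 11 libraries, adjusted by Benjamini-Hochberg over 246840 regions; a region is called when its adjusted p is under 0.05.

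The first set of sequences shows what the regions with the clearest differences look like. Each line is the central 200 bases of a region on the plus strand of GRCm38, and capitals mark CG dinucleotides.
Gm53 intron near Hoxb9, chr11:96260452-96260651: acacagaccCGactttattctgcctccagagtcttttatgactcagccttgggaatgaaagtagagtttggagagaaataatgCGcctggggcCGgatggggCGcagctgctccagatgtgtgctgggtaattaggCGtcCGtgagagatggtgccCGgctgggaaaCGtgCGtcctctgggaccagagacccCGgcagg
Hoxc6 intron, chr15:102999465-102999664: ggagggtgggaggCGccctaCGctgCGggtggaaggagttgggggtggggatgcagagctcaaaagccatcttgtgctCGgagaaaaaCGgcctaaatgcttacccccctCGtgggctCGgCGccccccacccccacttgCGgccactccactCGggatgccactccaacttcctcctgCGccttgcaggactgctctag
Between Hoxc13 and Hoxc12, chr15:102931765-102931964: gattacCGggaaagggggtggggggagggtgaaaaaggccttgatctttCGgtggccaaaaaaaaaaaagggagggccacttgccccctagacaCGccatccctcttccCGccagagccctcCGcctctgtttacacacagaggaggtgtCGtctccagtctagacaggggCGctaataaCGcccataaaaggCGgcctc
Upstream of Hoxb1, chr11:96363843-96364042: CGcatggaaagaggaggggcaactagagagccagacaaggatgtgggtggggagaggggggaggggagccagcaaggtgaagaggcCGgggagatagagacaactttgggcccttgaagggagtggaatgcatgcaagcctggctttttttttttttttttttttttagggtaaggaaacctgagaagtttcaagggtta
The first 2 belong to regions that were most open in D2-13B6, and hold 10 and 11 CG dinucleotides in these bases. The other 2 belong to regions that were most open in B6, and hold 9 and 2. Over the whole regions, the observed over expected CpG ratio was 0.508 in the Gm53 intron, 0.474 in the Hoxc6 intron, 0.303 between Hoxc13 and Hoxc12, and 0.130 upstream of Hoxb1.

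Hoxa13, the most posterior gene of Hoxa, has a far denser promoter, shown because its region was the one that rose most clearly in D2 over B6. RefSeq gives its start on the minus strand, and the 250 bases before it are printed 5′ to 3′ with CG in capitals.
Hoxa13 promoter, chr6:52260881-52261130, minus strand: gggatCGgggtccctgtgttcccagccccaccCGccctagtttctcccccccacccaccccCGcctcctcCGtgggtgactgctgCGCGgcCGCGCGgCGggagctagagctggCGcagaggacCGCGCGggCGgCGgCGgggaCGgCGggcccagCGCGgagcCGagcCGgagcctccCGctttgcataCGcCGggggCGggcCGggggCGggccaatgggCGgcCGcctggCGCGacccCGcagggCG
These bases hold 35 CG dinucleotides. The whole region at this start, chr6:52259784-52261476, has 71.4% GC and a CpG ratio of 0.875. RefSeq promoters of GRCm38.p6 were matched by symbol for 22 of the 38 listed Hox genes.

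CTCF, the zinc finger protein that holds chromatin loops, has a long motif, and its core was searched as CCA, any 2 bases, AG, any 2 bases, GGC, on both strands. Of the 130 Hox regions, 11 (8.46%) hold it, against 11.2% of all regions in the table and 16.5% (100 of 605) of the regions up to 500 kb on either side of the clusters. Here are 2 matches in regions that were more open in D2-13B6, and 1 in a region between Hoxb13 and Hoxb9 that was not called, each with 14 bases on either side and the motif in capitals.
Hoxb6 region, chr11:96299340-96299379, plus strand: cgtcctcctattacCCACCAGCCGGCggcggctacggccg
Hoxd3/Hoxd4 region, chr2:74715907-74715946, plus strand: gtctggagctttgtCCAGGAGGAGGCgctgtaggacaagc
Hoxb13 to Hoxb9, chr11:96235271-96235310, plus strand: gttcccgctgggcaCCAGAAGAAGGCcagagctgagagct
A retinoic acid response element of the DR5 type, searched as G, any base, TCA, 6 bases of any kind, G, any base, TCA on both strands, was in 4 Hox regions (3.08%) and in 2.70% of all regions. Such matches are letters only and show no binding.

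Hox regions were wider and richer in CpG than the rest of the table. Their median width was 832.5 bp against 548 bp for all regions, their median GC content 56.1% against 48.1%, and their median CpG ratio 0.570 against 0.221. Repeats were fewer, with a median of 9.72% of soft-masked bases against 15.7%. In all, 55 of the 130 lay within 1000 bp of an annotated start of a Hox gene and are called Hox promoter regions, and 48 did so within 500 bp. The 55 had a median CpG ratio of 0.670, the other 75 had 0.470, and all promoter regions of the table had 0.361.

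The clusters were open in all 4 lines at the level of ordinary promoters. The median level per length, averaged over the 11 libraries, was 5.04 CPM per kb for the 130 Hox regions, 3.338 for all regions tested and 5.55 for all promoter regions. Hox promoter regions (5.26) and the other Hox regions (4.76) were close to each other, and 112 of the 130 were above the median of all regions. By cluster, the median was 4.81 CPM per kb in Hoxa, 5.34 in Hoxb, 5.00 in Hoxc and 4.43 in Hoxd. Of the 38 listed Hox genes, 37 had a region within 1000 bp of a start, in 35 distinct regions, and Hoxa6 had none.

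Hoxc10, a posterior gene used in hindlimb and lumbar patterning, had the highest level at a start. Its region, chr15:102966234-102968051, which also covers the start of a long Hoxc5 transcript, had a mean over the lines of 17.1 CPM per kb. Its CPM were 29.3, 28.7 and 30.2 in B6, 40.2, 38.4 and 37.4 in D2, 27.9 and 24.3 in B6-13D2 and 31.6, 31.5 and 28.1 in D2-13B6. The 3 D2 libraries were the highest of the 11 and overlapped with none. Hoxc12 was lowest per length at 3.87 CPM per kb, and the median over the genes was 5.27.

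Other regions of high level per length lay away from starts or at them. An intergenic region 5822 bp from the nearest Hoxb4 start, chr11:96311423-96312445, had a line mean of 12.2 CPM per kb and was called in no comparison. Its CPM were 13.6, 15.98 and 13.4 in B6, 10.9, 13.5 and 8.51 in D2, 11.7 and 14.2 in B6-13D2 and 10.8, 14.6 and 10.04 in D2-13B6, so all 4 groups overlapped. Hoxc13, the most posterior gene of Hoxc and known for its part in hair and nail formation, had 9.14 CPM per kb at chr15:102920181-102922506 and lay between 16.6 and 26.1 CPM in all libraries. Hoxa7 had 9.55 CPM per kb at chr6:52221233-52222775.

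Summed over all 130 regions, accessibility was highest in D2-13B6 and lowest in B6-13D2. The sums were 746, 767 and 764 CPM in B6, 771, 736 and 696 in D2, 655 and 660 in B6-13D2 and 867, 955 and 790 in D2-13B6. The 2 B6-13D2 libraries were below all others, and the 3 D2-13B6 libraries were above all others. As raw shares of all counts, without TMM factors, the order was not the same: B6 had 0.0822, 0.0827 and 0.0818%, D2 0.0747, 0.0743 and 0.0695%, B6-13D2 0.0719 and 0.0705%, and D2-13B6 0.0775, 0.0734 and 0.0788%. On that scale B6 was highest, and the D2-13B6 libraries overlapped with those of D2. In bulk cells, more cells with an open region and more opening per cell cannot be told apart.

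**Figure D1:**
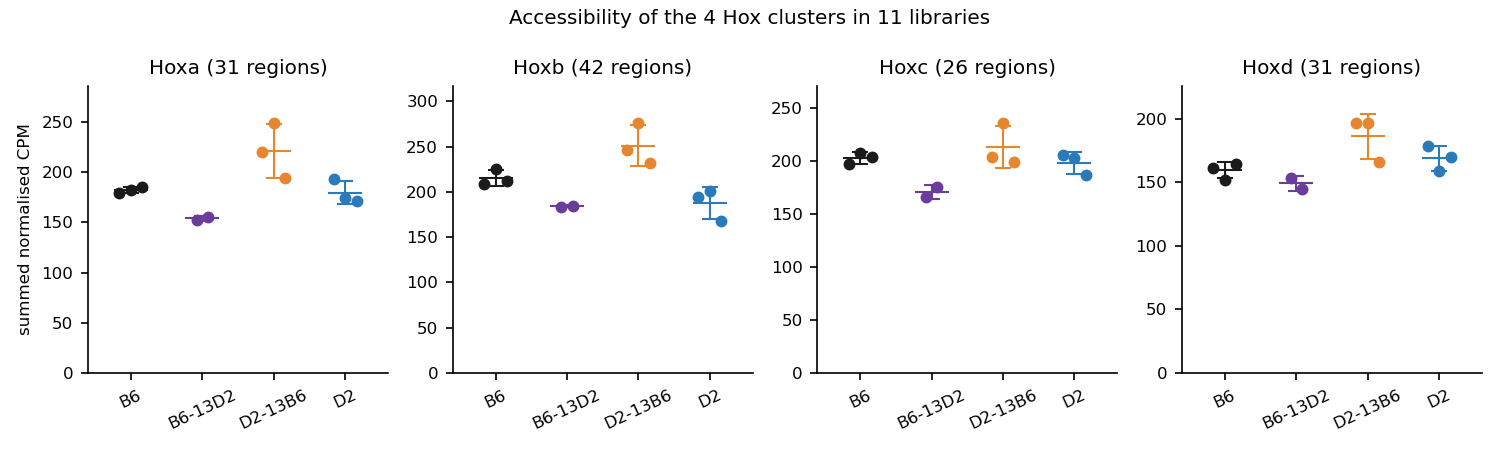
Summed normalised CPM (vertical axis) of the regions of Hoxa, Hoxb, Hoxc and Hoxd in each of the 11 libraries, by line. Points are libraries and bars show the mean ± SD. B6-13D2 has the lowest mean in all 4 clusters, and D2-13B6 has the highest, with a mean of 221 CPM in Hoxa and 251 in Hoxb.

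The order of the line means was alike in the 4 clusters. Hoxa summed to 182 ± 2.95 CPM in B6, 180 ± 11.8 in D2, 154 ± 2.22 in B6-13D2 and 221 ± 27.1 in D2-13B6 (mean ± SD, n = 3, 3, 2 and 3). Hoxb gave 215 ± 8.65, 188 ± 17.4, 184 ± 0.787 and 251 ± 22.5 in the same order. Hoxc gave 202 ± 5.57, 198 ± 10.2, 170 ± 6.60 and 212 ± 19.8. Hoxd gave 159 ± 6.32, 169 ± 9.87, 149 ± 5.76 and 186 ± 17.5, with D2 above B6 in mean only here. Region by region, D2-13B6 had the highest mean of the 4 lines in 70 of the 130 regions and B6 in 44, while B6-13D2 had the lowest in 59 and D2 in 33.

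The strain comparison, D2 against B6, called 18 Hox regions, 2 higher and 16 lower in D2. Over all regions tested, 22.5% were called, 13.7% as higher and 8.80% as lower. The median log2 fold change was -0.13 over the Hox regions and -0.01 over all regions, and 81 of the 130 had a negative value. All promoter regions of the table moved the other way, with a median of 0.16. The 16 lower regions were 4 in Hoxa, 7 in Hoxb, 3 in Hoxc and 2 in Hoxd. By position, 10 of the 52 regions nearest anterior paralogs and 6 of the 58 nearest posterior ones were lower, and none of the 20 nearest central paralogs was called. The count rested in part on single libraries: it was 10 without B6 replicate 1, 8 without B6 replicate 2 and 7 without D2 replicate 3. With scaling by total counts it was 30, of which 29 were lower.

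Regions around Hoxb1, the most anterior Hoxb gene and a marker of a single hindbrain segment, led the lower group. Upstream of its start by 1473 bp, chr11:96363605-96364279 had CPM of 6.15, 4.94 and 5.30 in B6, 3.89, 3.53 and 2.72 in D2, 3.96 and 4.63 in B6-13D2 and 2.88, 2.73 and 3.44 in D2-13B6. All 6 libraries on the D2 background were below all 5 on the B6 background. The log2 fold change of D2 against B6 was -0.70 (SE 0.19, adjusted p = 0.00521), and that of D2-13B6 against B6 was -0.87 (SE 0.20, adjusted p = 0.000218).

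The region over the Hoxb1 start itself, chr11:96365302-96365920 in a coding exon, had CPM of 3.53, 5.00 and 3.81 in B6, 2.28, 2.54 and 2.32 in D2, 3.82 and 2.69 in B6-13D2 and 2.39, 1.82 and 2.58 in D2-13B6. Again the D2 and D2-13B6 libraries were the lowest of the 11. Their log2 fold changes against B6 were -0.77 for D2 (adjusted p = 0.00526) and -0.85 for D2-13B6 (adjusted p = 0.00104). The adjoining region, chr11:96365972-96366451, was lower too, with log2 fold changes of -0.83 in D2 (adjusted p = 0.00364) and -0.62 in D2-13B6 (adjusted p = 0.0203). Farther out, 8351 bp from Hoxb1, chr11:96374609-96375371 had CPM of 5.82, 6.34 and 5.87 in B6, 4.23, 4.28 and 2.46 in D2, 4.28 and 4.73 in B6-13D2 and 2.44, 3.61 and 3.13 in D2-13B6. B6 stood above every other library there, and the log2 fold change was -0.71 for D2 against B6 (adjusted p = 0.00543) and -0.97 for D2-13B6 against B6 (adjusted p = 5.61e-05). Each of these 4 regions lost its D2 against B6 call under at least 1 alternative, with a highest adjusted p of 0.0592 to 0.0944, and none changed sign.

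At the anterior end of Hoxc, a region was called lower in D2, a call that rests on 1 library. An intergenic region 6576 bp from the Hoxc4 start, chr15:103040971-103042821, had CPM of 7.65, 12.7 and 8.80 in B6, 6.46, 6.43 and 5.96 in D2, 6.55 and 7.37 in B6-13D2 and 6.34, 7.24 and 7.43 in D2-13B6. Its 3 B6 libraries were the highest of the 11. The log2 fold change of D2 against B6 was -0.62 (SE 0.18, adjusted p = 0.00672) and that of D2-13B6 against B6 -0.46 (adjusted p = 0.0298). Without B6 replicate 2, the highest library, D2 against B6 fell to -0.39 and was not called (adjusted p = 0.177). Beyond the anterior end of Hoxa, the intergenic region chr6:52153889-52154559 had 1.80, 1.83 and 3.06 CPM in B6, 1.14, 1.45 and 1.29 in D2, 2.50 and 2.89 in B6-13D2 and 0.935, 0.727 and 1.20 in D2-13B6. All libraries on the D2 background were again below those on the B6 background. Its log2 fold change was -0.79 for D2 against B6 (adjusted p = 0.0229), -1.06 for D2 against B6-13D2 (adjusted p = 0.00552) and -1.23 for D2-13B6 against B6 (adjusted p = 0.000186).

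The 2 regions that were higher in D2 were starts of posterior genes, Hoxa13 and Hoxd9. Hoxa13, needed for digits and for the genital and urinary tract, had CPM of 7.65, 5.92 and 5.43 in B6, 10.3, 8.35 and 9.86 in D2, 7.73 and 6.33 in B6-13D2 and 11.3, 8.94 and 6.88 in D2-13B6. The 3 D2 libraries were above the 3 of B6, while D2-13B6 overlapped with B6. The log2 fold change of D2 against B6 was 0.58 (SE 0.18, adjusted p = 0.0144). Hoxd9, chr2:74697315-74699418, gave 0.45 (SE 0.17, adjusted p = 0.0490). Both were also called higher in D2-13B6 than in B6, Hoxa13 by 0.51 (adjusted p = 0.0192) and Hoxd9 by 0.53 (adjusted p = 0.0100), and 11.7% of all regions were called above B6 in both lines. With GC offsets, which remove each library's trend with GC content, neither was called in D2 against B6.

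In all, 13 Hox regions were called below B6 both in D2 and in D2-13B6, of which 5 lay in Hoxb, 3 in Hoxa, 3 in Hoxc and 2 in Hoxd. Over all regions, 7.29% were called below B6 in both. Of these, 8 were nearest anterior paralogs, 5 nearest posterior ones and none nearest central ones. The 2 comparisons share the B6 libraries, so the 2 calls of a region are not independent. Their median CpG ratio was 0.295, against 0.570 for all Hox regions.

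The comparison of the interval on the B6 background, B6-13D2 against B6, gave no called Hox region with edgeR. Over all regions 0.474% were called, 0.139% as higher and 0.335% as lower. DESeq2 called none of the 130 either, and at an unadjusted p under 0.05 edgeR had 0 higher and 16 lower. Those 16 are 12.3% of the Hox regions, where 4.13% of all regions were lower at that level. The Hox values leaned to the low side: 105 of 130 (80.8%) were negative, against 51.0% of all regions, and their median was -0.21 against -0.01. The median stayed between -0.14 and -0.25 under the alternatives other than leaving out a library. It was -0.24 in Hoxa, -0.21 in Hoxb, -0.26 in Hoxc and -0.10 in Hoxd, while the whole chromosomes had -0.01, -0.02, -0.03 and 0.02. The flanks of up to 500 kb had -0.22 beside Hoxa, -0.04 beside Hoxb, 0.03 beside Hoxc and -0.11 beside Hoxd. The smallest adjusted p of the 130 was 0.332. With a library left out, the cluster medians lay between -0.37 (Hoxc) and -0.06 (Hoxd). Over all regions, those richer in GC read lower in this comparison (Spearman's rho -0.16), and Hox regions are rich in GC. Within the 130, rho was -0.01. GC offsets were among the alternatives with a median between -0.14 and -0.25, and the cause of the lean was not tested.

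A region between Hoxc13 and Hoxc12 was the exception under 1 alternative. It is intergenic, chr15:102930966-102932763, 3994 bp from the Hoxc12 start, and its CPM were 16.4, 15.9 and 17.3 in B6, 12.9, 11.1 and 11.03 in D2, 10.3 and 12.8 in B6-13D2 and 6.31, 9.06 and 7.81 in D2-13B6. B6 was above every other library, D2-13B6 was below every other library, and B6-13D2 lay with D2. The log2 fold change of B6-13D2 against B6 was -0.52 (SE 0.19, adjusted p = 0.379) in the fit of all libraries, and the adjusted p was 0.00680 in a fit of only the 5 libraries of that contrast. For D2-13B6 against B6 the log2 fold change was -1.10 (SE 0.17, adjusted p = 1.49e-07), a 2.14-fold lower level. For D2 against B6 it was -0.50 (SE 0.17, adjusted p = 0.0208).

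With D2 as the background, the interval comparison D2 against D2-13B6 called 32 Hox regions, 2 higher and 30 lower in D2. Over all regions 23.7% were called, 8.53% as higher and 15.2% as lower. The median over the Hox regions was -0.22 against 0.04 over all regions, and 97 of 130 were negative. Hoxb held 18 of the 30 lower regions, 42.9% of its 42, and its median was -0.40. Across the alternatives other than leaving out a library, Hoxb had 5 to 19 lower regions and medians of -0.47 to -0.17. The rest of the chromosome has to be read beside this: chromosome 11 as a whole had a median of -0.27 and the flanks of Hoxb -0.31. Hoxa had 4 lower and 1 higher, Hoxc 6 and 1, and Hoxd 2 and 0, with medians of -0.23, -0.15 and -0.07 against 0.04, 0.02 and 0.04 for their chromosomes. Scaling each chromosome by itself left 21 called, 19 of them lower. The count was 18 without D2-13B6 replicate 2 and 19 without D2 replicate 3. Scaling by total counts gave 18 lower and 7 higher.

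No Hox region was called with the same sign in B6-13D2 against B6 and in D2 against D2-13B6, the 2 comparisons of the interval that share no library. The first of these calls none of the 130, so the count follows from it. The difference between the 2 effects was tested as an interaction, the log2 fold change of B6-13D2 against B6 minus that of D2 against D2-13B6. It called 4 Hox regions, 3 positive and 1 negative, where 6.54% of all regions were called, 4.55% as positive and 1.99% as negative. With total counts 7 were called, 1 positive and 6 negative, and with own-chromosome scaling 2 were called, 1 in each direction. None was called without B6-13D2 replicate 1, and 1 was called without B6-13D2 replicate 2 or without B6 replicate 1, the region between Hoxc13 and Hoxc12 in both cases. Without B6 replicate 3, D2-13B6 replicate 2 or D2 replicate 3 the count was 2.

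D2-13B6 against B6, which compares the backgrounds with B6 alleles in the D2-13B6 interval, called the most Hox regions. Of the 130, 55 were called, 36 higher and 19 lower in D2-13B6, where 41.7% of all regions were called, 21.6% as higher and 20.1% as lower. Scaling by total counts instead of TMM gave 52 called with 14 higher and 38 lower, so the split between directions depends on the scaling. The median over the Hox regions was 0.12 with TMM and -0.18 with total counts, while the median of all regions was -0.13 and -0.43, so that the clusters stood above the middle of the table on both scales. All promoter regions had a median of 0.15, close to that of the Hox regions. By cluster, the higher and lower calls were 9 and 6 in Hoxa, 13 and 5 in Hoxb, 6 and 5 in Hoxc, and 8 and 3 in Hoxd. The cluster medians were 0.14, 0.28, 0.08 and 0.02, against -0.16, 0.15, -0.07 and -0.15 for their chromosomes.

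The centre of the clusters was called in 1 direction. Of the 20 regions nearest paralogs 5 to 8, which lie 9 in Hoxb, 7 in Hoxc, 3 in Hoxa and 1 in Hoxd, 11 were called higher in D2-13B6 than in B6 and none lower, with a median of 0.50. Over all regions, that comparison called 21.6% as higher and 20.1% as lower. In D2 against D2-13B6, 12 of the 20 were called lower in D2 and none higher, with a median of -0.52 and all 20 values negative. There the shares of all regions were 15.2% lower and 8.53% higher. The 9 Hoxb regions had a median of -0.56, on a chromosome whose own median was -0.27. For the 7 Hoxc regions these medians were -0.58 and 0.02. The region over the starts of both Hoxc10 and a long Hoxc5 transcript was counted as posterior. Its value for D2 against D2-13B6 was 0.35, not called (adjusted p = 0.112). D2 against B6 had a median of -0.01 over the 20 central regions and no call. Its groups did not overlap at 4 of the 20, 2 higher and 2 lower in D2. Among the 130 Hox regions they did not overlap at 47, 14 higher and 33 lower. The share of all regions without overlap was not counted, so these counts do not set Hox regions apart from others. The summed CPM of the 20 were 123, 129 and 133 in B6, 132, 134 and 118 in D2, 104 and 115 in B6-13D2 and 175, 214 and 163 in D2-13B6. All 3 D2-13B6 libraries were above all others. As CPM of the plain total, without TMM, they were 135, 139 and 143 in B6, 128, 135 and 118 in D2, 114 and 122 in B6-13D2 and 157, 165 and 163 in D2-13B6, and the same libraries were highest.

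Around this centre the 2 directions were mixed. Of the 52 regions nearest anterior paralogs, 14 were higher and 10 lower in D2-13B6 than in B6, and of the 58 nearest posterior ones 11 and 9. Under the alternatives the central count fell to 6 higher with total counts and to 8 without D2-13B6 replicate 2, with none lower in any. For D2 against D2-13B6 the central count of lower regions fell to 7 with total counts, 8 with own-chromosome scaling, 5 without D2-13B6 replicate 2 and 4 without D2 replicate 3, with none higher in any.

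**Figure D2:**
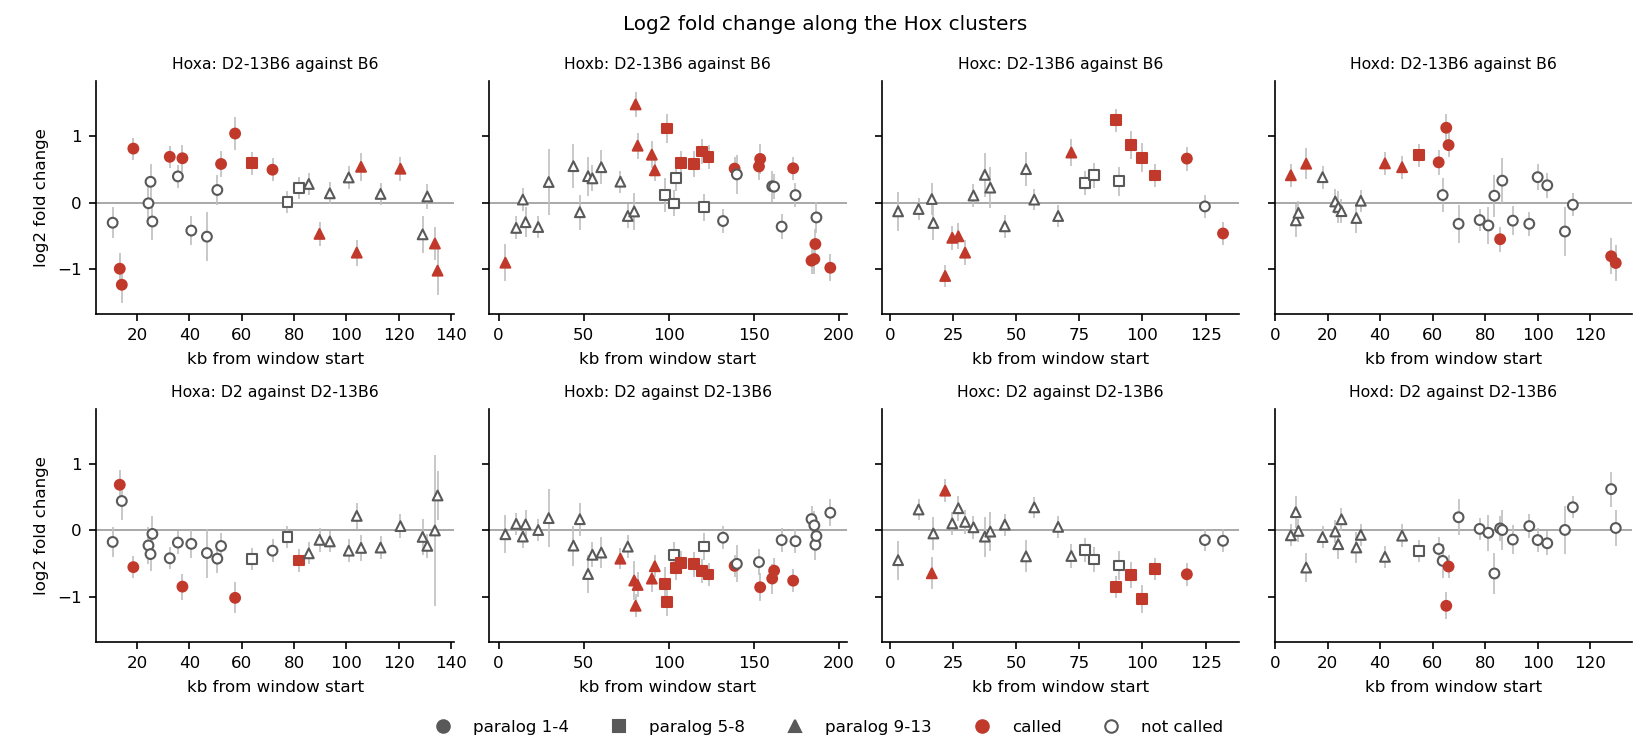
Log2 fold change (vertical axis, ± SE) of each Hox region against its distance in kb from the start of the cluster window, for D2-13B6 against B6 (top) and D2 against D2-13B6 (bottom). Filled red symbols are called; circles, squares and triangles are regions nearest paralogs 1 to 4, 5 to 8 and 9 to 13. The squares called in the top row, 11 in all, are above 0, and the 12 called in the bottom row are below 0.

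In all, 22 Hox regions were called higher in D2-13B6 than in both B6 and D2, and 2 lower than in both. Over all regions, 13.9% were called higher than in both and 5.5% lower. The 22 lay 12 in Hoxb, 5 in Hoxc, 3 in Hoxa and 2 in Hoxd, and 10 were Hox promoter regions. For D2-13B6 against B6, the rest of chromosome 11, which holds Hoxb, had a median of 0.15 against -0.13 over all regions. For D2 against D2-13B6 these medians were -0.27 and 0.04. By position, 9 of the 52 anterior, 9 of the 20 central and 4 of the 58 posterior regions were among the 22. The 2 calls of each region share the D2-13B6 libraries, so a high value in those libraries enters both. In no comparison, the interaction included, 61 of the 130 were called, against 50.4% of all regions not called in any.

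The largest of these differences was at an intron of Gm53, a long noncoding gene between Hoxb13 and Hoxb9. The region, chr11:96260169-96260933, lies 10524 bp from the Hoxb9 start, and its CPM were 3.56, 5.67 and 4.25 in B6, 6.10, 5.41 and 5.33 in D2, 4.09 and 3.94 in B6-13D2 and 11.5, 14.9 and 10.4 in D2-13B6. The 3 D2-13B6 libraries were far above the other 8, which lay together. D2-13B6 was 2.78-fold above B6 (log2 fold change 1.47, SE 0.19, adjusted p = 4.74e-10), and D2 was 2.19-fold below D2-13B6 (log2 fold change -1.13, SE 0.18, adjusted p = 6.47e-07). D2 against B6 gave 0.35 (adjusted p = 0.199) and B6-13D2 against B6 gave -0.14 (adjusted p = 0.963). The interaction was 0.99 (SE 0.28, adjusted p = 0.0233). A neighbouring noncoding exon of Gm53, chr11:96261339-96262107, had 3.93, 4.88 and 3.41 CPM in B6, 5.37, 3.83 and 3.21 in D2, 4.14 and 4.58 in B6-13D2 and 6.26, 8.15 and 7.53 in D2-13B6. There too D2-13B6 stood above all other libraries, with log2 fold changes of 0.86 over B6 (adjusted p = 0.000223) and -0.82 for D2 against it (adjusted p = 0.000488).

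Toward Hoxb8 the same held on a smaller scale. The intergenic region chr11:96278709-96279238, 2667 bp from the start of Hoxb8, a gene with roles in the spinal cord and in blood progenitors, had CPM of 2.46, 3.72 and 3.15 in B6, 2.83, 4.12 and 2.52 in D2, 2.77 and 3.14 in B6-13D2 and 4.70, 9.21 and 6.02 in D2-13B6. D2-13B6 was highest, with replicate 2 well above the other 2. The log2 fold change was 1.11 over B6 (SE 0.22, adjusted p = 1.84e-05) and, in D2 against D2-13B6, -1.07 (SE 0.21, adjusted p = 3.89e-05).

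The starts of Hoxb9, Hoxb7, Hoxb6 and Hoxb5 were also called higher in D2-13B6, and that of Hoxb8 was not. Toward the anterior end, the regions of highest level at Hoxb4 (0.51 over B6, adjusted p = 0.0121) and Hoxb2 (0.52, adjusted p = 0.0136) were called higher too. That at Hoxb3 was not (0.24, adjusted p = 0.321), and Hoxb1 was lower, as given above. At the Hoxb8 start, chr11:96282900-96283576, D2-13B6 against B6 gave -0.01 (adjusted p = 0.972). Hoxb9, a posterior gene of the thoracic region, had 20.9, 18.6 and 19.4 CPM in B6, 18.8, 20.1 and 18.0 in D2, 14.9 and 18.6 in B6-13D2 and 30.6, 28.8 and 23.0 in D2-13B6 at chr11:96270546-96273094. Its D2-13B6 libraries were the 3 highest, and the log2 fold change was 0.49 over B6 (adjusted p = 0.0136). Hoxb5, which takes part in neural crest and gut innervation, had 5.86, 4.82 and 5.95 CPM in B6, 5.78, 6.08 and 5.16 in D2, 5.37 and 4.63 in B6-13D2 and 10.1, 9.73 and 7.05 in D2-13B6 at chr11:96302690-96304113. D2-13B6 was again above all others, by 0.69 over B6 (adjusted p = 0.00119). Hoxb6, chr11:96298811-96299915, whose CTCF-like match is printed above, had 5.02, 3.72 and 5.82 CPM in B6, 5.99, 5.54 and 4.90 in D2, 4.91 and 5.68 in B6-13D2 and 7.33, 10.3 and 7.46 in D2-13B6. Its log2 fold change was 0.77 over B6 (adjusted p = 0.000478) and, in D2 against D2-13B6, -0.61 (adjusted p = 0.00758). At the Hoxb7 start, chr11:96286476-96287550, the values were 0.60 (adjusted p = 0.00587) and -0.48 (adjusted p = 0.0351). All of these lie on chromosome 11, whose median for D2-13B6 against B6 was 0.15 as a whole.

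Hoxc showed that the pattern was not confined to chromosome 11. Hoxc6 is a central gene expressed at thoracic levels, and the region in its intron 246 bp from a start, chr15:102998846-103000283, had CPM of 8.05, 10.002 and 9.28 in B6, 10.7, 13.4 and 11.7 in D2, 6.69 and 6.13 in B6-13D2 and 19.95, 25.6 and 18.5 in D2-13B6. The 4 lines did not overlap, in the order B6-13D2, B6, D2, D2-13B6. D2-13B6 was 2.35-fold above B6 (log2 fold change 1.24, SE 0.17, adjusted p = 8.25e-09). D2 was below D2-13B6, with a log2 fold change of -0.84 (SE 0.17, adjusted p = 4.6e-05) and above B6-13D2 by 0.89 (SE 0.20, adjusted p = 0.000656). B6-13D2 against B6, at -0.50, was not called (adjusted p = 0.491).

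Another Hoxc6 region in a coding exon, chr15:103009384-103010011, had 2.66, 3.29 and 3.41 CPM in B6, 1.84, 2.76 and 2.66 in D2, 3.09 and 3.44 in B6-13D2 and 3.48, 6.88 and 4.51 in D2-13B6. D2-13B6 was highest, though replicate 1 was only just above the top B6-13D2 library. D2 against D2-13B6 gave -1.03 (adjusted p = 0.000108) and the interaction 1.10 (SE 0.33, adjusted p = 0.0328). Hoxc5, chr15:103013761-103016187, which also holds the microRNA gene Mir615, had 16.6, 17.7 and 17.3 CPM in B6, 15.7, 17.1 and 13.0 in D2, 13.3 and 15.0 in B6-13D2 and 20.4, 26.2 and 22.05 in D2-13B6. The D2-13B6 libraries were the 3 highest, with a log2 fold change of 0.41 over B6 (adjusted p = 0.0402).

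In Hoxd the 2 regions called above both B6 and D2 were neighbours, in the stretch shared by introns of Hoxd3, Hoxd4 and the antisense gene Hoxd3os1. The region chr2:74714987-74715369 had CPM of 2.79, 3.29 and 2.36 in B6, 2.46, 3.56 and 2.32 in D2, 2.14 and 2.64 in B6-13D2 and 5.14, 7.48 and 5.67 in D2-13B6. D2-13B6 was above all other libraries, by 1.12 over B6 (SE 0.21, adjusted p = 8.4e-06), and D2 was below it, at -1.13 (SE 0.20, adjusted p = 8.48e-06). Its neighbour chr2:74715645-74716467, with the CTCF-like match printed above, had 6.02, 7.62 and 6.13 CPM in B6, 7.34, 8.92 and 8.34 in D2, 5.46 and 6.43 in B6-13D2 and 10.4, 15.7 and 9.70 in D2-13B6. D2-13B6 was highest here too, with 0.86 over B6 (adjusted p = 5.59e-05) and, in D2 against D2-13B6, -0.54 (adjusted p = 0.0151). Of the 11 Hox regions with a CTCF-like match, 4 were higher in D2-13B6 than in B6 and none lower. In that comparison 36 of the 130 Hox regions and 21.6% of all regions were called higher.

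At the far end of Hoxa a region went the other way. The intergenic region chr6:52153115-52153781 had 2.96, 3.17 and 3.55 CPM in B6, 2.88, 2.22 and 2.72 in D2, 2.96 and 4.33 in B6-13D2 and 1.79, 1.67 and 1.38 in D2-13B6. The 3 D2-13B6 libraries were the lowest of the 11. D2-13B6 against B6 gave -0.99 (SE 0.23, adjusted p = 0.000276) and D2 against D2-13B6 gave 0.69 (SE 0.22, adjusted p = 0.0175). With the region between Hoxc13 and Hoxc12 it makes the 2 that were called below both B6 and D2.

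**Figure D3:**
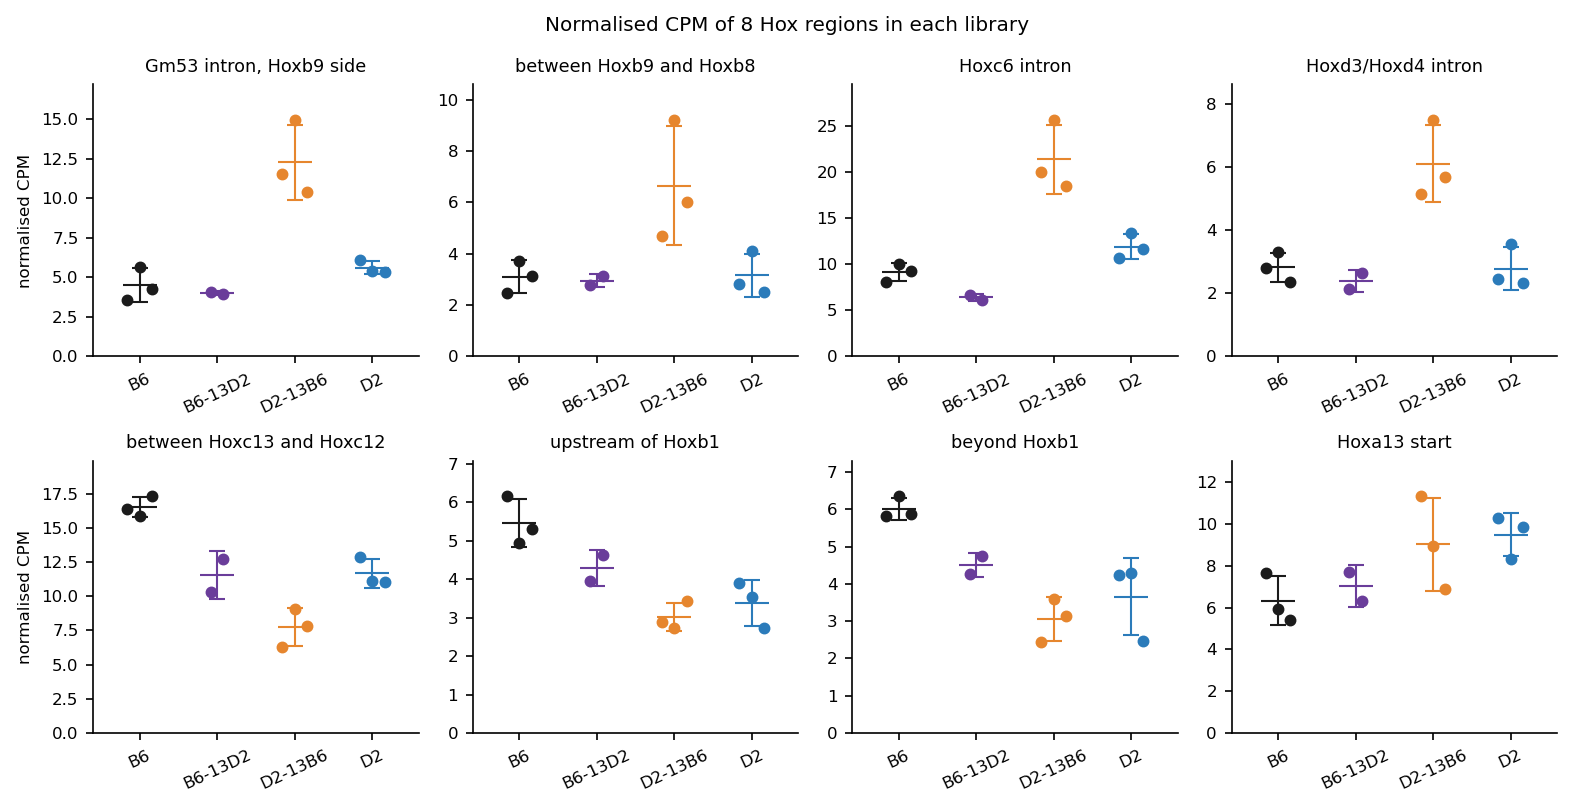
Normalised CPM (vertical axes) of 8 Hox regions in each of the 11 libraries, by line. Points are libraries and bars show the mean ± SD. In the top row D2-13B6 is above all other lines, with a mean of 12.3 CPM in the Gm53 intron against 4.49 in B6; in the first 3 panels of the bottom row B6 is highest; at the Hoxa13 start D2 is above B6.

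D2 against B6-13D2, which compares the backgrounds with D2 alleles in the interval, called 10 Hox regions, 9 higher and 1 lower in D2. Over all regions 18.8% were called, 11.6% as higher and 7.24% as lower. The median over the Hox regions was 0.07. With GC offsets 5 were called, 3 higher and 2 lower, with total counts 11, of which 8 were higher, and without either B6-13D2 library 2. Without D2 replicate 1, 5 were called. Besides the Hoxc6 intron, the higher regions included starts. Hoxa4 had 3.36, 3.48 and 3.94 CPM in B6, 4.15, 4.42 and 5.16 in D2, 2.46 and 2.44 in B6-13D2 and 6.29, 5.91 and 3.85 in D2-13B6 at chr6:52191689-52192575. B6-13D2 was lowest and D2 was above both B6-background lines, with a log2 fold change of 0.90 over B6-13D2 (SE 0.24, adjusted p = 0.00427). Hoxd13, the digit gene at the end of Hoxd, had 10.4, 9.33 and 11.1 CPM in B6, 13.3, 11.4 and 13.0 in D2, 8.19 and 8.02 in B6-13D2 and 15.3, 14.8 and 10.2 in D2-13B6 at chr2:74667036-74669132. The B6-13D2 libraries were the lowest 2, and the log2 fold change was 0.63 (SE 0.20, adjusted p = 0.0154). Hoxc10, with the CPM given above, gave 0.57 (SE 0.18, adjusted p = 0.0208), and 0.39 for D2 against B6 (adjusted p = 0.0707).

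CpG content moved with the direction of the background differences within the clusters. Over the 130 regions, Spearman's rho between the CpG ratio and the log2 fold change was 0.41 for D2 against B6 and 0.37 for D2-13B6 against B6, where all regions of the table gave 0.05 and 0.02. Neighbouring regions share sequence and libraries, so these values are descriptions. Regions called lower in D2 than in B6 had a median CpG ratio of 0.294, and the 2 called higher 0.849; both of the latter lose that call with GC offsets. For D2-13B6 against B6 the medians were 0.315 for the lower and 0.614 for the higher. For D2 against D2-13B6 rho was -0.14, and the medians were 0.566 for the lower and 0.330 for the 2 higher. Of the 55 Hox promoter regions, 19 were higher and 5 lower in D2-13B6 than in B6, 2 were higher and 4 lower in D2 than in B6, and 13 were lower in D2 than in D2-13B6, with none higher. Of all promoter regions of the table, 37.4% were higher and 17.2% lower in D2-13B6 than in B6, 24.8% were higher and 6.60% lower in D2 than in B6, and 15.8% were lower and 8.04% higher in D2 than in D2-13B6.

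**Figure D4:**
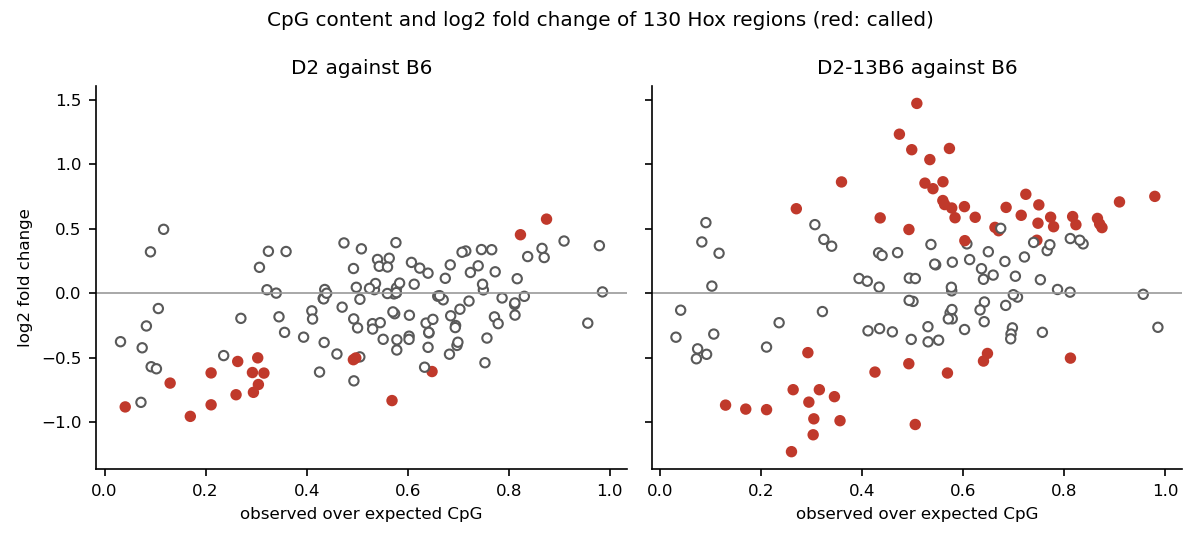
Log2 fold change (vertical axis) of the 130 Hox regions against their observed over expected CpG ratio (horizontal axis), for D2 against B6 and D2-13B6 against B6. Each point is a region and red points are called. The lower calls have median CpG ratios of 0.294 and 0.315, and the higher calls of 0.849 (2 regions) and 0.614; in D2-13B6 against B6 the ratios of higher and lower calls overlap from 0.270 to 0.812.

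Markers of other cell types were read in the same libraries, by the region of highest level within 1000 bp of a start. The counts stand beside the shares of all promoter regions given above, 37.4% higher and 17.2% lower in D2-13B6 than in B6. Those shares count every region within 1000 bp of a start, weaker ones included, so they are not like for like with the lists. Of 11 fibroblast markers, 9 had a region (Col3a1 and Lum had none). Their summed CPM were 92.5 to 99.5 in B6, 120 to 130 in D2, 87.2 to 96.9 in B6-13D2 and 155 to 216 in D2-13B6, so D2-13B6 was highest, as in the central Hox regions. In D2-13B6 against B6, 6 of the 9 were higher and none lower, among them Dcn (1.96) and Col1a1 (1.33), which encode matrix proteins, and Twist1 (1.11), a mesenchymal transcription factor. D2 was lower than D2-13B6 at 6 and higher than B6 at 4. Of 10 embryonic stem cell markers, all with a region, 7 were lower in D2-13B6 than in B6 and 2 higher: the pluripotency factors Pou5f1 (-1.02), Nanog (-0.88) and Esrrb (-1.32) fell, and Klf4 (0.80) and Tbx3 (0.76) rose. Their summed CPM were 366 to 391 in B6, 350 to 387 in D2, 358 to 381 in B6-13D2 and 282 to 344 in D2-13B6. Of 8 posterior mesoderm markers, 6 were lower in D2-13B6 than in B6 and none higher. For 5 neural markers the counts were 1 lower and 0 higher, and for 5 endoderm markers 2 lower and 1 higher. The part of these markers in the Hox result was not tested.

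**Figure D5:**
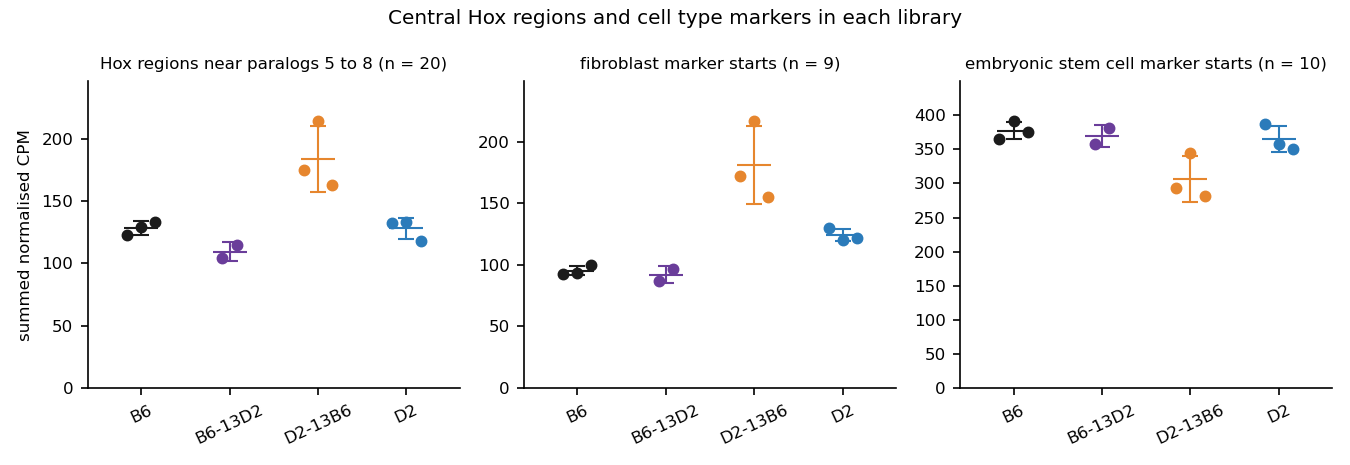
Summed normalised CPM (vertical axes) of the 20 central Hox regions, of 9 fibroblast marker starts and of 10 embryonic stem cell marker starts in each of the 11 libraries. Points are libraries and bars show the mean ± SD. D2-13B6 is highest in the first 2 panels, with replicate 2 at 214 and 216 CPM, and lowest in mean in the third.

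Genes that act with or on Hox genes were counted by the same rule, beside the same shares of all promoter regions, and B6-13D2 against B6 called none of them. Of 9 Hox cofactors, homeodomain proteins that bind DNA together with Hox proteins, 6 were higher in D2-13B6 than in B6 and none lower, among them Meis1 (1.24); with total counts it was 6 and 1. Of 9 inducers, 4 were higher and 3 lower: the retinoic acid receptor genes Rara (0.86), Rarb (0.79) and Rarg (0.59) and the ligand gene Gdf11 (0.48) rose, and the caudal genes Cdx1 (-1.12), Cdx2 (-1.09) and Cdx4 (-0.56) fell. With total counts the split was 3 and 4. Of 28 Polycomb genes, 23 were higher and 1 lower, the lower one Mtf2 (-0.71), with a median of 0.66; with total counts it was 16 and 3, with a median of 0.35. Ezh2 (0.75), Eed (0.77) and Suz12 (0.80), the core of the complex that methylates H3K27, were all among the higher. D2 against B6 called 16 of the 28 as higher and none lower, where 24.8% of all promoter regions were higher.

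Among chromatin loop proteins, the starts of all 8 genes, Ctcf (0.71) and the cohesin gene Rad21 (0.76) included, were higher in D2-13B6 than in B6, also with total counts. Of 8 trithorax and demethylase genes with a region, 5 were higher and none lower. Against these, the 35 other homeobox genes that Polycomb silences in stem cells had 7 higher and 6 lower, with a median of -0.04, and with total counts 5 and 19. Of 15 distinct regions at genes that flank the clusters, 10 were higher and 2 lower, Evx1 (-0.75), the even-skipped gene next to Hoxa13, and Skap1 (-0.995), next to Hoxb1; with total counts the split was 6 and 4. The part of these genes in the Hox result was not tested.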

How the data were processed

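Counts per accessible region in 11 ATAC-seq libraries were used as deposited by the authors. The submitters' processing notes name mm10, Trimmomatic 0.39, BWA 0.7.5, Picard 2.0.1, MACS 1.4.2, bedtools 2.9.2 and edgeR 3.34.1, without their roles. That reference derives from C57BL/6J, and how reads with DBA/2J alleles were handled is not given in the sources used here. Replicate pairs all differed by more than sampling noise, with a chi-square per degree of freedom of 2.06 to 6.33.

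Groups came from the labels. Counts were fitted with edgeR 4.0.16 in R 4.3.3: filterByExpr (1496 of 248336 regions removed), TMM factors, trended dispersion, robust quasi-likelihood, 1 coefficient per group. Alternatives were RLE size factors, total counts, own-chromosome scaling, GC offsets, no filter, DESeq2 1.42.0, only the libraries of a contrast, the replicate number as a block, and each library left out.

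The fit was tested on simulated counts with known changes, log2 fold changes of 1 and of 0.585 set in 100 regions each. Of these, D2 against B6 called 47% and 4%, and D2 against D2-13B6 called 43% and 0%. For B6-13D2 against B6 it was 26% and 0%. A region not called in these comparisons may therefore still differ. All other simulated regions were unchanged, so far fewer regions differed than were called in the data. Adjustment is stricter in that setting, so the shares recovered in the data can be other than these.

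Named regions are, per comparison, up to 5 called regions a direction with the smallest p whose groups do not overlap, and in each cluster the 2 highest per length; Hoxd9 and some starts were named after their values were seen. Members and lists were chosen with earlier results of these data known. At the anterior end of Hoxa, 1 region is counted but not reported separately here. Positions come from GENCODE vM21 and RefSeq on GRCm38.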

Additional observations from a re-analysis of the deposited data

Results flagged for a closer look

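The interaction test asks whether D2 alleles in the interval, set against B6 alleles there, go with the same difference on both backgrounds. It called 4 of the 130 Hox regions, where 6.54% of all regions were called. Each genotype is 1 cell line, so interval and cell line cannot be told apart. In a Gm53 intron (chr11:96260169-96260933) B6-13D2 against B6 minus D2 against D2-13B6 was 0.99 on the log2 scale, and in a neighbouring Gm53 exon (chr11:96261339-96262107) it was 0.93. In a coding exon of Hoxc6 (chr15:103009384-103010011) it was 1.10. Between Hoxc13 and Hoxc12 (chr15:102930966-102932763) it was -1.12, with an adjusted p of 0.0047 in edgeR's test. All 4 rest on 2 libraries of B6-13D2, and without replicate 1 of that line none was called. The summed fibroblast marker level was also highest in D2-13B6, and its part was not tested.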

How the results depend on the processing

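B6-13D2 has 2 libraries and each other line 3. Of 33 results for single named regions, 16 kept their direction and call under every alternative run; of 656 alternative values, 603 kept both, 53 kept the direction without the call and 0 reversed. With total counts, D2 against B6 called 30 Hox regions in place of 18 and the interaction 7 in place of 4. With own-chromosome scaling, D2 against D2-13B6 called 21 in place of 32 and the interaction 2. With GC offsets, D2 against B6-13D2 called 5 in place of 10. In a fit of only its own libraries, B6-13D2 against B6 called 1 in place of 0; the interaction has no such fit. The cause of these shifts was not tested. Leaving out a library gave 7 to 26 called regions for D2 against B6, 38 to 60 for D2-13B6 against B6, 18 to 38 for D2 against D2-13B6, 2 to 12 for D2 against B6-13D2, 0 to 6 for the interaction and 0 in all cases for B6-13D2 against B6.

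Replicate numbers were shared between groups, but deviations of same-numbered libraries from their group means correlated by only -0.049 to 0.068, so the numbers were not taken as a pairing. With the replicate number as a block, the Hox counts were 18 for D2 against B6, 56 for D2-13B6 against B6, 35 for D2 against D2-13B6, 13 for D2 against B6-13D2, 3 for the interaction and 0 for B6-13D2 against B6. With the block and GC offsets together they were 17, 58, 39, 6, 5 and 0.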
